A study of Mus musculus with 6 samples.

Results

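The genes described here encode the collagens of basement membranes and of hexagonal networks, namely the 6 chains of type IV (Col4a1 to Col4a6), both chains of type VIII (Col8a1 and Col8a2), and collagens XV and XVIII (Col15a1 and Col18a1). They were chosen by gene name, with earlier results of these data known. All 10 were found among the 26012 genes listed for the series. They also passed the filter on low values (a mean of at least 1), which kept 21126. RNA was sequenced from the ventricles of 6 infarcted mouse hearts, 3 injected with a control mimic and 3 with mimics of the miRNAs miR-19a and miR-19b. All animals were male C57BL/6 mice aged 8 weeks in which MI was made by tying off the left anterior descending artery, and every heart received 10 μg of mimic by direct injection, the control hearts included. The ventricles were taken on day 4 post-MI, with 3 biological replicates in each group and no uninjured or uninjected hearts among these samples. The comparison asks which transcripts differ after injection of the miR-19a/19b mimics. Each heart is named below by its group and replicate number. Between 19398196 and 23645308 reads per heart fell on genes, of which the 10 collagens took 0.564% to 0.641% in the control hearts and 0.397% to 0.481% in the miR-19a/19b mimic hearts. Mimic replicate 3 stood apart from the other libraries. The chi-square per degree of freedom between its counts and those of mimic replicates 1 and 2 was 135 and 121, against 10.3 to 26.6 for the other pairs within a group, and it had 3.18% mitochondrial reads, against 4.18% to 6.93% in the other hearts. It was kept, and values without it are given where it moves a result.

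Basement membranes are thin sheets of matrix that surround every cardiomyocyte and smooth muscle cell and line the endothelium of the capillaries. Their scaffold is type IV collagen, a network of heterotrimers. The chains of Col4a1 and Col4a2 form the trimer found in nearly every basement membrane, while those of Col4a3, Col4a4 and Col4a5, or of Col4a5 and Col4a6, form trimers known mainly from kidney, lung and smooth muscle. Type VIII collagen is a short-chain collagen of vessel walls that builds hexagonal lattices, and collagens XV and XVIII carry heparan or chondroitin sulfate chains and sit at the outer face of basement membranes. Type IV and type VIII collagens are made by endothelial cells, pericytes, smooth muscle cells and fibroblasts, and mutations of Col4a1 and Col4a2 weaken small vessels.

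The injected mimics carry the mature sequences below, shown because the bases in capitals, the seed at positions 2 to 8 from the 5′ end, are those with which a miRNA pairs to its target mRNAs. They are from RefSeq on build GRCm38.p6, where Mir19a lies at chr14:115044048-115044070 and Mir19b-1 at chr14:115044358-115044380, both on the plus strand. A copy of miR-19b is also encoded by Mir19b-2 at chrX:52741991-52742013 on the minus strand.
mmu-miR-19a-3p: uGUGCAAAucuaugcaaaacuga
mmu-miR-19b-3p: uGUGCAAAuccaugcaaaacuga
Both are 23 bases long and share the seed, and they differ by 1 base, U11C from miR-19a to miR-19b, counted from the 5′ end. The libraries were made from poly(A) RNA and do not measure mature miRNAs, so the amount of mimic in each heart was not checked here.

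A seed match was searched on the sense strand of the longest annotated 3′ UTR of each gene, as the 8-mer TTTGCACA, the 7-mers TTTGCAC and TTGCACA (both contained in the 8-mer) and the 6-mer TTGCAC contained in all of them. None of the 10 collagens held any of these, the 6-mer included. Among the 15820 tested genes with an annotated 3′ UTR, 18.4% held a 7-mer or 8-mer and 25.9% a 6-mer or longer. The 3′ UTRs of the collagens were not short, with a median of 1346.5 bases against 1103.5 over the tested genes, and ranged from 877 bases in Col15a1 to 4708 in Col4a4. The absence of a match says only that these letters are not in these UTRs.

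The 6 type IV genes lie in 3 head-to-head pairs, each pair starting from nearby points on opposite strands. Col4a1 and Col4a2 overlap by 22 bases at their starts on chromosome 8, the starts of Col4a3 and Col4a4 on chromosome 1 leave 71 bases between them, and those of Col4a5 and Col4a6 on chromosome X leave 1308. The stretch that lies in the promoter windows (250 bases before to 50 after the start) of both Col4a1 and Col4a2 is shown because 1 short region precedes both chains of the main trimer. It covers chr8:11312777-11312854 on GRCm38.p6, is printed on the plus strand with the 22 bases that belong to both genes in capitals, and is 73.1% G and C.
Col4a1 and Col4a2 shared stretch: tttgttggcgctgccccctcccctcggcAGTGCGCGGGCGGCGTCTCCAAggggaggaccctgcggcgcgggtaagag
The window of Col4a4, at chr1:82586800-82587099 on the minus strand, also reaches over the start of Col4a3 and is the only one of those printed with no GC box (GGGCGG on either strand, the binding motif of Sp1).
Col4a4: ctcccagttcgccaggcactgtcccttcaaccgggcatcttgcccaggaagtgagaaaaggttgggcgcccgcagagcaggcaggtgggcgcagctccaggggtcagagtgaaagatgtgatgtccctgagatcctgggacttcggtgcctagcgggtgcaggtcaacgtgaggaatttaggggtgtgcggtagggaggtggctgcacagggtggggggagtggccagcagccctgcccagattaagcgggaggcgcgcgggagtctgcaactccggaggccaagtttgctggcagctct
The windows of the type VIII genes are shown because they held the most GC boxes, 4 each, marked in capitals, where neighbouring boxes may overlap. That of Col8a1 lies at chr16:57754688-57754987 on the minus strand and that of Col8a2 at chr4:126286544-126286843 on the plus strand.
Col8a1: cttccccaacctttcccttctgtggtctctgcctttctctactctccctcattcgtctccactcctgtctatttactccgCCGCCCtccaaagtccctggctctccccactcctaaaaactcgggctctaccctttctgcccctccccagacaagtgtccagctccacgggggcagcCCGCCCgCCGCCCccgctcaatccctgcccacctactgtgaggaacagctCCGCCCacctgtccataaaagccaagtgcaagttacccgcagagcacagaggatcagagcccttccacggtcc
Col8a2: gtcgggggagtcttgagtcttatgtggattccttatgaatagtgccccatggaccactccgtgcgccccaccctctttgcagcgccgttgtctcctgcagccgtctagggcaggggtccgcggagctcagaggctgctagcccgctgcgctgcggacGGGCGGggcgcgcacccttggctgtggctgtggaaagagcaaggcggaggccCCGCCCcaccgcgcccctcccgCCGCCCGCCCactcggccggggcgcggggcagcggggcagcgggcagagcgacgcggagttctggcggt
Windows were found in RefSeq for 9 of the 10 genes, with 2 windows for Col18a1. A GC box was present in 7 of these 10 windows, against 35.7% of all 32851 windows in the table, and a CCAAT box (CCAAT) in 4 of 10, against 37.4%. The windows of Col4a1 and Col4a2 share the stretch printed above, so they are not independent. The 1 GC box of Col4a1 lies in that stretch and is also counted for Col4a2. The window of Col15a1 held 0 GC boxes, and those of Col18a1 held 3 and 0. Neither the AP-1 motif TGANTCA nor the TATA motif TATAAA occurred in any of the 10 windows, where 7.81% and 13.6% of all windows held them, counted on both strands. These counts describe letters and not binding.

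On a scale of normalized counts per kilobase of gene model, the only scale used here to compare genes, the main type IV chains dominated. Col4a1 stood at 6846 ± 601 (SD, n = 3) in the control mimic hearts and made up 35.2% of the summed mean level of the 10 genes over all 6 hearts. Its partner Col4a2 stood at 5557 ± 117 (SD, n = 3) and took 29.3%. Both far exceeded the remaining type IV chains.

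Col8a1 at 2746 ± 361 and Col15a1 at 2509 ± 73.3 per kilobase (SD, n = 3 control hearts) came next, and Col18a1 followed at 833 ± 41.1. Col4a5, the chain shared by both minor trimers, stood at 329 ± 41.4, and Col8a2, the lesser chain of type VIII, at 154 ± 31.0. At the bottom were Col4a4 at 12.8 ± 1.31, Col4a6 at 11.4 ± 2.21 and Col4a3 at 5.82 ± 0.180 per kilobase. The last 3 are thus present at trace levels in the infarcted ventricle and rest on 33 to 197 reads per heart. In the order of levels, the ranges over the 6 hearts overlapped for 3 pairs of neighbours: Col4a1 and Col4a2, Col8a1 and Col15a1, and Col4a4 and Col4a6. Col4a1 was nevertheless above Col4a2 in 6 of 6 hearts, whereas Col8a1 was above Col15a1 in 3 of 6.

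**Figure D1:**
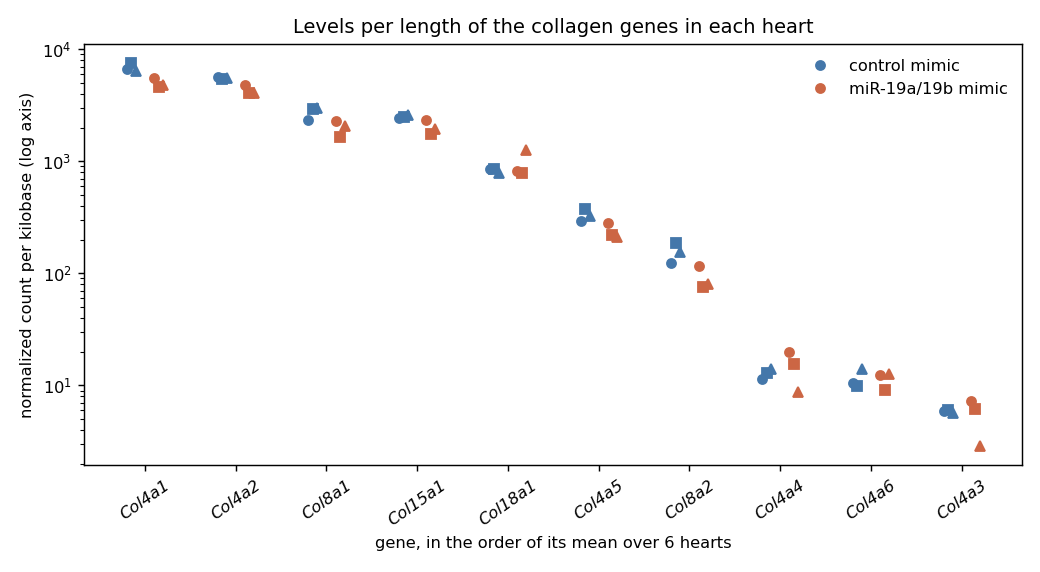
Normalized count per kilobase of gene model (log axis) for each of the 10 collagen genes, ordered by mean level, with 1 point for each heart, control mimic in blue and miR-19a/19b mimic in orange, and circles, squares and triangles for replicates 1, 2 and 3. Col4a1 and Col4a2 are highest, and Col4a3, Col4a4 and Col4a6 lie below 20 in every heart.

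The type IV chains together made up 63.1% to 68.7% of the summed level per kilobase in every heart, type VIII 13.1% to 16.7%, and collagens XV and XVIII 16.8% to 22.0%. The highest share of XV and XVIII and the lowest share of type IV were both found in miR-19a/19b mimic replicate 3. The sum over all 10 genes was 19004 ± 758 per kilobase in the control hearts and 14635 ± 1533 in the miR-19a/19b mimic hearts (SD, n = 3 each), with the 3 control sums (18378, 19847 and 18786) above the 3 mimic sums (16252, 13204 and 14448).

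Between the groups, 6 of the 10 collagens were lower in all 3 miR-19a/19b mimic hearts than in any control heart: Col4a1, Col4a2, Col4a5, Col8a1, Col8a2 and Col15a1. Over the 21126 genes tested, 5.30% had groups that did not overlap in this direction, and 3.90% in the other, in which there was no collagen of these 10. By fold change 8 of the 10 were lower and 2 higher, where 10398 of all genes tested were lower and 10728 higher. Col4a3 and Col4a6 among the lower, and Col4a4 and Col18a1, the 2 higher, changed sign when 1 heart was left out. The median log2 fold change of the 10 was -0.35 against 0.004 over all genes tested, and -0.32 without mimic replicate 3. No member passed an adjusted p under 0.05 by limma, the test used throughout unless another is named, and 0% of all genes tested passed it in either direction. At an unadjusted p under 0.05, 4 members were lower (Col4a1, Col4a5, Col8a1 and Col8a2) and 0 higher, where 2.63% of all genes were lower and 1.39% higher. This count was 2 without control replicate 2, control replicate 3 or mimic replicate 2, and 6 without mimic replicate 1 or mimic replicate 3. Without mimic replicate 3, 154 genes were called lower and 361 higher over all genes, still with 0 of the 10 collagens. The edgeR quasi-likelihood test, the edgeR exact test, DESeq2 and limma-voom on the recovered reads also called 0 members, so the differences below are described by their size and spread and not as changes. The ventricle is a mixture of cells, in which fewer cells of a type and less RNA per cell cannot be told apart.

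**Figure D2:**
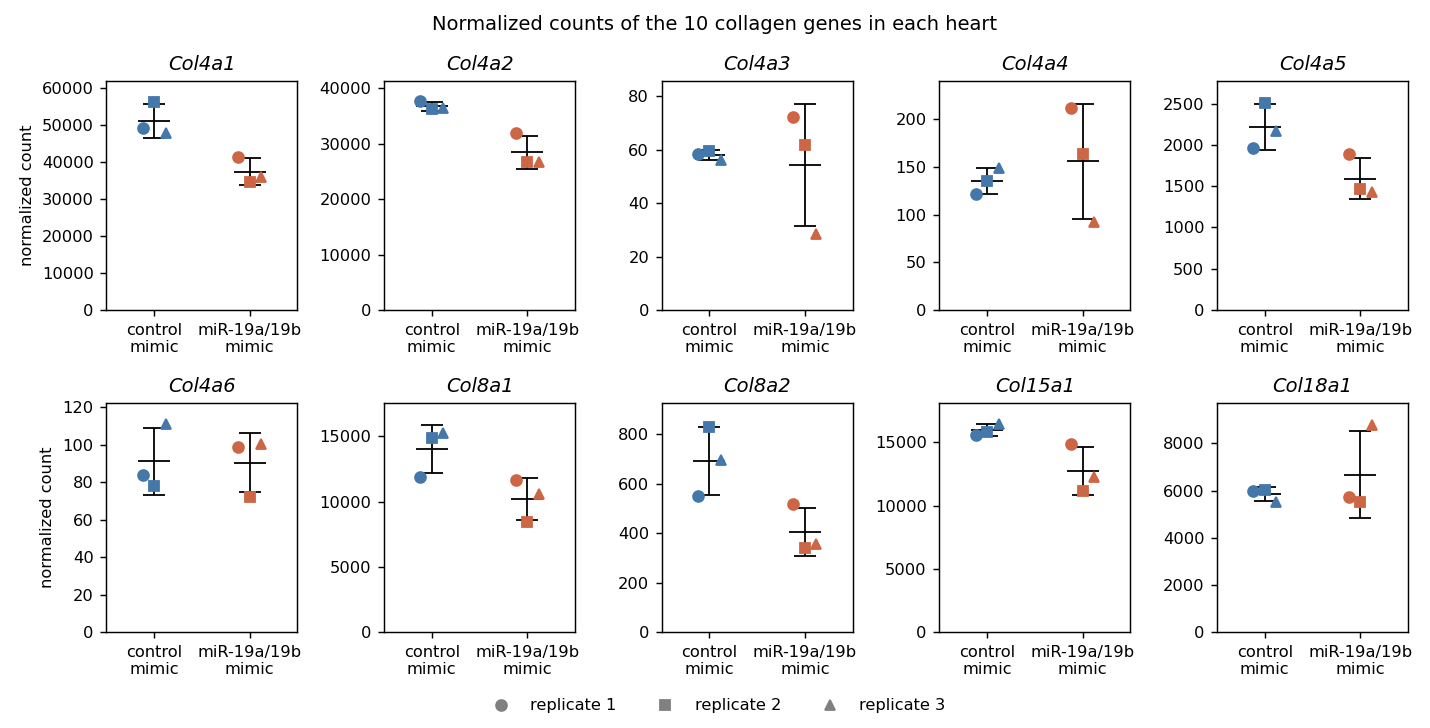
Normalized counts of each collagen gene in the 3 control mimic hearts (blue) and the 3 miR-19a/19b mimic hearts (orange), on axes that start at 0, with the mean (long bar) and SD (short bars). In 6 panels, those of Col4a1, Col4a2, Col4a5, Col8a1, Col8a2 and Col15a1, every mimic heart lies below every control heart.

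Col4a1 (ENSMUSG00000031502, chr8:11198423-11312826, minus strand of GRCm38) encodes the chain that is present in double dose in the main type IV trimer. Its normalized counts were 49226, 56069.6 and 47644 in control replicates 1 to 3, and 41356, 34616 and 35978 in miR-19a/19b mimic replicates 1 to 3. The groups did not overlap, and the highest mimic heart reached 86.8% of the lowest control heart. The mean was 50979.9 ± 4478 in control and 37316 ± 3564 in mimic hearts (SD, n = 3 each), or 73.2% of the control level. On the log2(normalized count + 1) scale the difference was -0.45 (SE 0.19, 95% confidence interval -0.89 to -0.01), with an unadjusted p of 0.0454 and an adjusted p of 0.9996.

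Col4a2 (ENSMUSG00000031503, chr8:11312805-11449287, plus strand) encodes the second chain of that trimer. It was counted at 37661, 36219 and 36466 in the control hearts, which were close together, and at 31962, 26754 and 26798 in the mimic hearts. Every mimic heart was below every control heart, replicate 1 least so. The means of 36782 ± 771 and 28505 ± 2994 (SD, n = 3 each) gave a log2 difference of -0.37 (SE 0.17, 95% confidence interval -0.76 to 0.02, unadjusted p 0.0591). In the annotation the gene span of Col4a1, introns included, shares 6081 bases with that of the antisense gene Gm15418. The span of Col4a2 shares 18707 with that of the antisense gene Gm15419. How much of this lies in exons was not measured. Whether the counting used strand is not given in the sources used here. How reads from any shared exon bases were counted is therefore not known.

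Col4a5 (ENSMUSG00000031274, chrX:141475385-141689234, plus strand), the chain common to the minor trimers, was counted at 1956, 2508 and 2169 in the control hearts and at 1885, 1465 and 1428 in the mimic hearts. The groups were apart by a narrow margin, since mimic replicate 1 reached 96.4% of control replicate 1. The means were 2211 ± 278 and 1593 ± 254 (SD, n = 3 each), and the log2 difference was -0.48 (SE 0.14, 95% confidence interval -0.80 to -0.16, unadjusted p 0.0083, adjusted p 0.9996).

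The other minor chains did not separate the groups. Col4a3 (ENSMUSG00000079465, chr1:82586921-82722059, plus strand), known with Col4a4 for the basement membrane of the glomerulus, was counted at 58.6, 59.5 and 56.1 in the control hearts and at 72.1, 61.9 and 28.5 in the mimic hearts. Col4a4 (ENSMUSG00000067158, chr1:82448423-82586849, minus strand) was counted at 121.6, 135.7 and 149.5 in the control hearts and at 212.0, 163.9 and 92.5 in the mimic hearts. In both genes mimic replicates 1 and 2 were the highest of the 6 hearts and mimic replicate 3 the lowest, so that the mimic hearts surrounded the control hearts. Their log2 differences were -0.20 (SE 0.33, unadjusted p 0.553) for Col4a3 and 0.13 (SE 0.27, unadjusted p 0.654) for Col4a4. The sign turned to 0.20 for Col4a3 without mimic replicate 3 and to -0.13 for Col4a4 without mimic replicate 1, while Col4a4 stood at 0.46 without mimic replicate 3. The gene span of Col4a3, introns included, shares 30132 bases with that of C430014B12Rik on the other strand, while no annotated gene overlaps Col4a4.

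The summed normalized counts of 10 cardiomyocyte marker genes had the same order among the mimic hearts, but not among the control hearts. That sum was 1026072, 924854 and 344462 in mimic replicates 1 to 3, against 659544, 560275 and 741228 in control replicates 1 to 3. This order among the mimic hearts was not particular to the cardiomyocyte markers. Sums of pericyte and smooth muscle markers were 143515, 114841 and 90931 in mimic replicates 1 to 3. Those of skeletal muscle were 10266, 6312 and 1733, and those of Schwann cells 209.8, 196.9 and 131.4. The part of any of these cells in the values of Col4a3 and Col4a4 was not tested.

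Col4a6 (ENSMUSG00000031273, chrX:141165403-141474076, minus strand), the partner of Col4a5 in smooth muscle basement membranes, was counted at 84.0, 78.1 and 111.2 in the control hearts and at 99.0, 72.2 and 100.3 in the mimic hearts. The hearts of the groups were interleaved. With a log2 difference of -0.01 (SE 0.21, 95% confidence interval -0.48 to 0.46), a difference of the size found in Col4a5 lies inside the interval at this depth of 70 to 119 reads per heart. Its sign turned, to 0.14, without control replicate 3 or without mimic replicate 2.

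Col8a1 (ENSMUSG00000068196, chr16:57624258-57754737, minus strand), the main chain of type VIII in these hearts, was counted at 11908, 14892.5 and 15273 in the control hearts. In the mimic hearts it was counted at 11645, 8447 and 10570.3. The groups did not overlap, but only just, because control replicate 1 was low and mimic replicate 1 reached 97.8% of it. The means were 14024 ± 1843 and 10221 ± 1627 (SD, n = 3 each), with a log2 difference of -0.46 (SE 0.17, 95% confidence interval -0.84 to -0.08, unadjusted p 0.0237, adjusted p 0.9996).

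Col8a2 (ENSMUSG00000056174, chr4:126286793-126314330, plus strand), best known from the membrane beneath the corneal endothelium, had the most negative fold change of the 10. Its counts were 551.5, 829.5 and 696.9 in the control hearts and 518.6, 341.3 and 357.9 in the mimic hearts. Again mimic replicate 1 lay just under control replicate 1, at 94.0% of it, while mimic replicates 2 and 3 were far below all control hearts. The mean was 693 ± 139 in control and 406 ± 97.9 in mimic hearts (SD, n = 3 each), or 58.6% of control. The log2 difference was -0.78 (SE 0.20, 95% confidence interval -1.22 to -0.33), with an unadjusted p of 0.00335 and an adjusted p of 0.877. No annotated gene overlaps Col8a1 or Col8a2.

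Col15a1 (ENSMUSG00000028339, chr4:47208161-47313167, plus strand) encodes a proteoglycan collagen of the outer basement membrane of muscle and capillaries. It was counted at 15571, 15768 and 16456.5 in the control hearts and at 14842, 11121 and 12261 in the mimic hearts. The control hearts lay close together and above all mimic hearts, of which replicate 1 was nearest. The means were 15932 ± 465 and 12741 ± 1906 (SD, n = 3 each), and the log2 difference was -0.33 (SE 0.15, 95% confidence interval -0.67 to 0.01, unadjusted p 0.0548).

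Col18a1 (ENSMUSG00000001435, chr10:77052178-77166548, minus strand), the precursor of the angiogenesis inhibitor endostatin, went the other way in 1 heart. Its counts were 5985, 6040.0 and 5515 in the control hearts and 5736, 5500.2 and 8784 in the mimic hearts. Mimic replicate 3 was the highest of all 6 hearts, and the other mimic hearts lay at or near the control hearts. The log2 difference was 0.16 (SE 0.18, 95% confidence interval -0.25 to 0.57, unadjusted p 0.401), and it was -0.06 without mimic replicate 3. The gene span of Slc19a1, introns included, overlaps that of Col18a1 by 8825 bases on the other strand. The counts of Slc19a1 were 186 ± 19.8 in control and 198 ± 21.6 in mimic hearts (SD, n = 3 each).

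**Figure D3:**
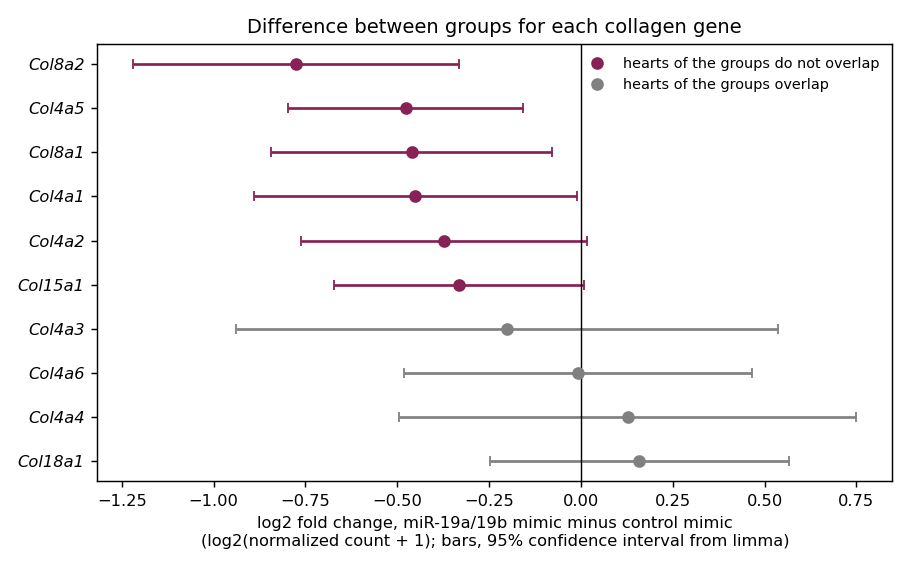
Log2 fold change of each collagen gene, miR-19a/19b mimic minus control mimic, with its 95% confidence interval from limma, with red points for genes whose groups do not overlap. The point of Col8a2 is the most negative at -0.78, the intervals of Col4a2 and Col15a1 just reach 0, and the points of Col4a4 and Col18a1 lie above 0.

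Taking each heart as a whole, the median deviation of the 10 genes from the control mean was -0.07, 0.04 and 0.01 (log2) in control replicates 1 to 3. It was -0.15, -0.49 and -0.48 in mimic replicates 1 to 3, in which 7, 8 and 8 of the 10 genes were below the control mean. That mean is taken from the control hearts themselves, so for each gene the control deviations cancel by construction. Among the 6 genes with all mimic hearts below all control hearts, mimic replicate 1 was the highest mimic heart for 6 of 6, and mimic replicate 2 the lowest for 5 of 6. Mimic replicate 1 was thus the heart nearest to the controls for these genes, and control replicate 1 was the lowest control heart for 4 of the 6.

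Chains that assemble or are paired were compared as ratios of normalized counts per kilobase within each heart, with an exact two-sided permutation test of the log2 ratio. With 3 hearts against 3 its smallest p is 0.1, so no ratio could pass 0.05. The ratio of Col4a1 to Col4a2 was 1.16, 1.38 and 1.16 in the control hearts and 1.15, 1.15 and 1.19 in the mimic hearts. The groups overlapped, with a log2 difference of -0.08 (exact p 0.5, and 0.6 adjusted over the 6 ratios). The ratio of Col4a5 to Col4a1 was 0.0480 ± 0.00348 and 0.0472 ± 0.00327 (SD, n = 3 each; exact p 0.8), a log2 difference of -0.03.

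In 2 of the 6 ratios the control and mimic hearts stood apart. Col8a1 to Col8a2 was 18.97, 15.8 and 19.3 in the control hearts and 19.7, 21.8 and 26.0 in the mimic hearts, a log2 difference of 0.32 (exact p 0.1, adjusted 0.3). Col15a1 to Col18a1 was 2.88, 2.89 and 3.30 in the control hearts and 2.86, 2.24 and 1.54 in the mimic hearts, a log2 difference of -0.49 (exact p 0.1, adjusted 0.3). Without mimic replicate 3 the differences were 0.21 and -0.25, and without mimic replicate 1 that of Col15a1 to Col18a1 was -0.70. The nearest hearts of the groups were almost equal in both ratios, and mimic replicate 3 was the mimic heart farthest from the controls in both. Col4a3 to Col4a4 went from 0.460 ± 0.0572 to 0.364 ± 0.0367 and Col4a5 to Col4a6 from 29.6 ± 7.68 to 21.2 ± 3.80 (SD, n = 3 each; exact p 0.2, adjusted 0.3 for each), and in both the groups overlapped. The log2 difference of Col4a5 to Col4a6 was -0.47, and -0.27 without control replicate 2.

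**Figure D4:**
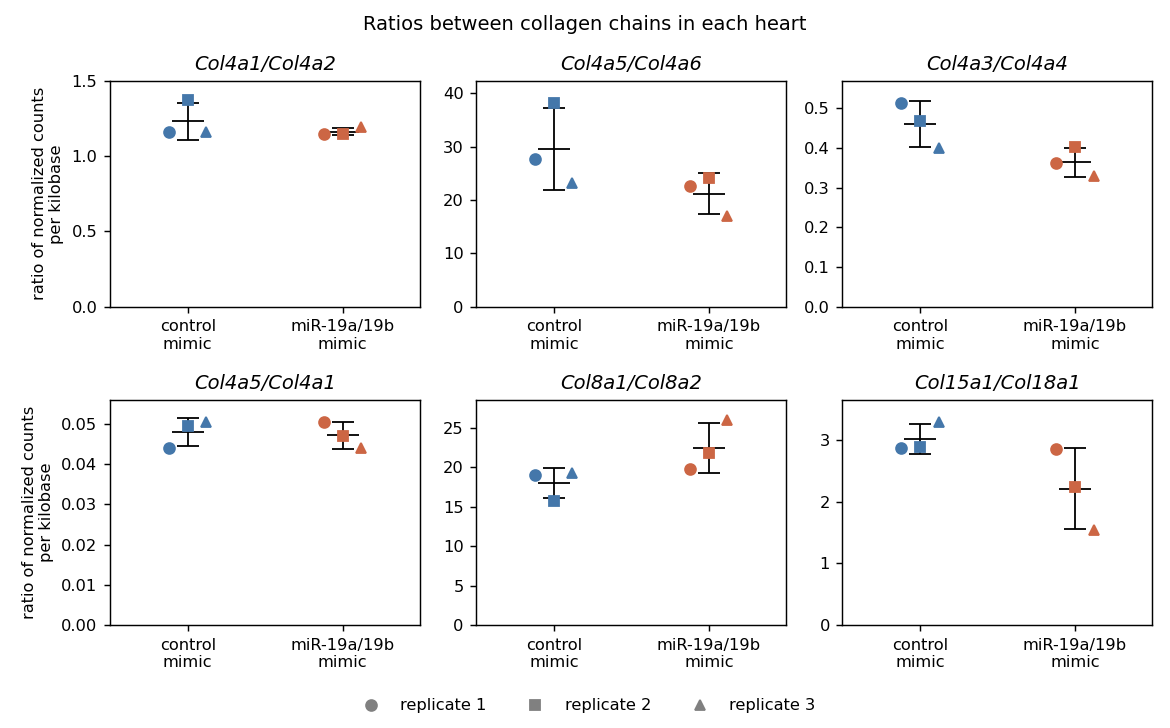
Ratio of normalized counts per kilobase for 6 pairs of collagen chains in each heart (blue, control mimic; orange, miR-19a/19b mimic), with the mean (long bar) and SD (short bars) on axes that start at 0. The ratio Col4a1/Col4a2 stays between 1.15 and 1.38 in all 6 hearts, and Col15a1/Col18a1 runs down to 1.54 in mimic replicate 3.

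The other genes of the pathway, described by lists of pathway genes, had medians closer to 0 than the collagens themselves, and none passed an adjusted p under 0.05. Of 18 genes for folding, modification and crosslinking of collagen chains, 15 were lower and 3 higher by fold change, with a median log2 difference of -0.06, and 0 passed an unadjusted p under 0.05. Serpinh1, the collagen chaperone, was at -0.08 (SE 0.19), Pxdn, the peroxidase that crosslinks type IV collagen, at -0.06 (SE 0.16), and Plod2, a lysyl hydroxylase, at -0.22 (unadjusted p 0.103). Of 20 other basement membrane genes, 13 were lower and 7 higher (median -0.05). Agrn, the heparan sulfate proteoglycan agrin, was the only 1 of them with an unadjusted p under 0.05, at a log2 difference of -0.29 (unadjusted p 0.0185).

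The laminin chain Lamc1 was at -0.23 (SE 0.15), the linker Nid1 at -0.16 (SE 0.14), the proteoglycan Hspg2 at -0.06 (SE 0.20) and the collagen-binding Sparc at -0.05 (SE 0.29). The control and mimic hearts overlapped for all 4 of these. Of 16 receptors for collagen or laminin, 11 were lower and 5 higher, with a median of -0.12 and 0 at an unadjusted p under 0.05. Itgb1, the common chain of the collagen-binding integrins, was at -0.19 (SE 0.15) with groups that did not overlap, and Itgav at -0.24 (unadjusted p 0.0629).

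Of 14 proteases and inhibitors that act on these networks, 11 were lower and 3 higher (median -0.05, and 0.07 without mimic replicate 1). Only Ctss, the lysosomal protease cathepsin S, had an unadjusted p under 0.05, at -0.44 (unadjusted p 0.047). The gelatinases Mmp2 at -0.03 (SE 0.14) and Mmp9 at -0.01 (SE 0.41), which cleave type IV collagen, and cathepsin B, Ctsb, at -0.01 (SE 0.25), were near 0. Among 12 upstream factors, 9 were lower and 3 higher (median -0.08), and 2 had an unadjusted p under 0.05. They were Ctgf, a matricellular protein that promotes matrix synthesis, at -0.54 (unadjusted p 0.0118), and the growth factor Tgfb2 at -0.42 (unadjusted p 0.0142), the latter named after its values were seen.

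Of 14 chains of fibrillar and beaded filament collagens, taken for comparison, 10 were lower and 4 higher, with a median of -0.09, which was 0.05 without mimic replicate 2. Of them, 1 was lower and 1 higher without overlap between the groups. Of the 10 basement membrane and network collagens, 6 were lower and 0 higher. Over all genes tested, 5.30% were lower and 3.90% higher without overlap. Of the other lists, 3 of 12 upstream factors, 3 of 16 receptors and 2 of 20 basement membrane genes were lower without overlap. For the 18 chain assembly genes and the 14 proteases and inhibitors the count was 0. In these lists, 1 basement membrane gene was the only 1 higher without overlap. Col1a1 and Col3a1, the main fibrillar collagens of scar, were at 0.07 (SE 0.43) and -0.12 (SE 0.35), and Col2a1, the collagen of cartilage, at -1.14 (unadjusted p 0.0165) from means of 52.1 and 22.3 normalized counts. The difference between these lists was not tested. A 7-mer or 8-mer match to the miR-19 seed lay in the 3′ UTR of 4 of the 18 chain assembly genes. It was found for 1 of the 20 basement membrane genes, 8 of the 16 receptors and 4 of the 14 proteases and inhibitors. It was also found for 4 of the 12 upstream factors and 1 of the 14 comparison collagens. Among all tested genes with an annotated 3′ UTR, 18.4% held a match. The 4 upstream factors were Ctgf (log2 difference -0.54), Hif1a (-0.14), Smad2 (-0.09) and Tgfbr2 (0.04), while Tgfb2 held none. What these matches do in the hearts was not tested.

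**Figure D5:**
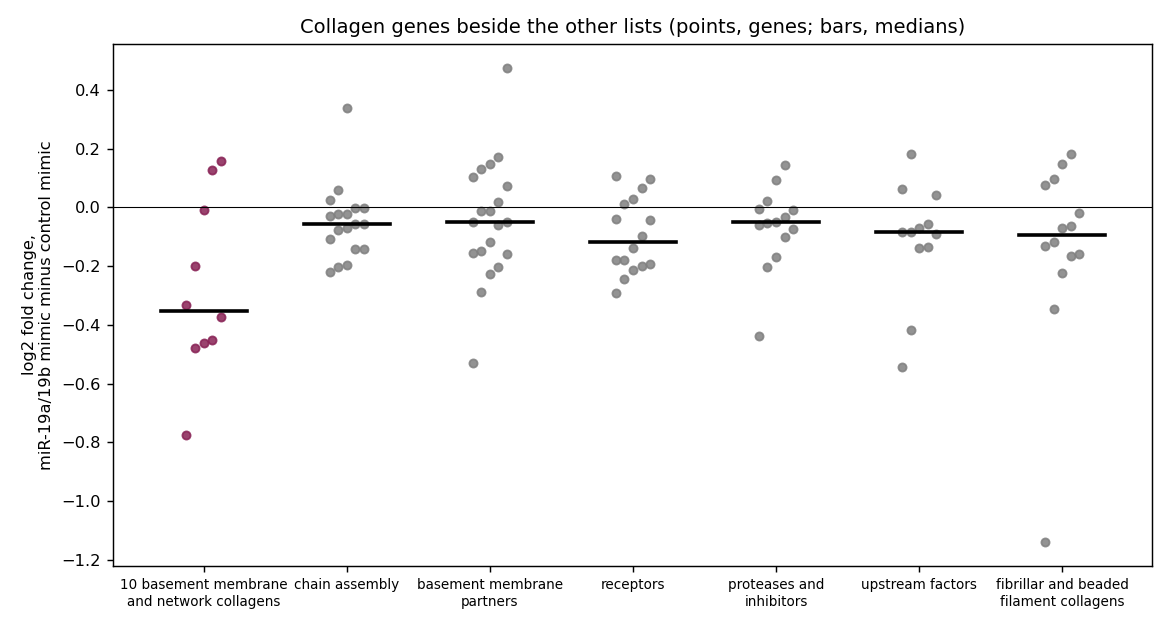
Log2 fold change, miR-19a/19b mimic minus control mimic, of each gene in 7 lists (points) with the list's median (bar). The median of the 10 basement membrane and network collagens lies at -0.35 and those of the other lists between -0.05 and -0.12.

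The hearts were also compared through marker genes of the cells that a ventricle holds. No listed marker was below a mean of 1, and the cardiomyocyte list summed to 344462 normalized counts or more in every heart. The sums of 10 endothelial markers were 34874 to 43933 in the control and 37880 to 39097 in the mimic hearts, and those of 10 pericyte and smooth muscle markers 121296 to 146401 and 90931 to 143515, with mimic replicate 3 lowest. By fold change, 6 of 10 endothelial markers were lower (median -0.01), and 8 of 10 pericyte and smooth muscle markers (median -0.11). The pericyte and smooth muscle list includes Des and Acta2. The share of each gene in its sums was not examined, so they are not read as a measure of these cells alone.

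The sums of 10 fibroblast and myofibroblast markers, which include Col1a1, were 364289 to 451944 in the control and 303875 to 504204 in the mimic hearts. Col1a1 alone gave 254239 to 327494 and 221273 to 412278, so these sums rest mainly on that gene. By fold change 7 of the 10 markers were lower (median -0.04). Macrophage and monocyte markers summed to 72000 to 82048 and 57075 to 88623, with 8 of 10 lower (median -0.21). Cardiomyocyte markers were higher for 8 of 10 (median 0.14), with the sums given above. Markers of skeletal muscle summed to 2765 to 4243 in the control hearts and to 10266, 6312 and 1733 in the mimic hearts, and 12 of 12 were higher by fold change (median 1.96). Schwann cell markers (5 of 5 higher, median 0.49), epicardial markers (5 of 5 higher, median 0.37) and erythrocyte markers (5 of 5 lower, median -0.46) had few counts or varied widely, with sums of at most 209.8 normalized counts, 940.2 and 4137 in any heart. The part of any of these in the values of the collagens was not tested.

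The genes whose pattern over the 6 hearts was most like that of 4 of the collagens were found among 11601 genes with a mean of at least 100, by the root mean square distance of mean-centred log2 values. For Col4a1, whose own values spread by 0.25, they were Ccl8, Fam198b, Cx3cl1, Lrp8 and Nlrc3, at distances of 0.05 to 0.08. For Col8a1, the elastic fibre gene Fbln5 was closest, at 0.02, followed by Fat1, Edn1, Fgfrl1 and Ciita at up to 0.10. Col15a1 was nearest to Stbd1 at 0.04, then to Fam101b, Fjx1, Lamc1 and Lrp11 at up to 0.08, and Col18a1 to Chaf1b, Ctsk, Acat2, Cenpn and Eno2, at 0.04 to 0.05. Among the 45 pairs of the collagens themselves, the closest were Col4a2 with Col15a1 (0.07), Col4a1 with Col4a5 (0.09) and Col4a1 with Col4a2 (0.09). These distances are descriptions over 6 hearts that share their groups, and they say nothing of shared control.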

How the data were processed

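Poly(A) RNA from the ventricles of 3 control mimic and 3 miR-19a/19b mimic hearts was sequenced. Per the submitters' processing notes, reads were aligned with STAR 2.5.1b, counted with HTSeq 0.6.0 and normalized with DESeq2 1.10.1. The methods name edgeR for the comparison between groups. The deposited signal holds counts per gene scaled by library size factors (0.905 to 1.16). Multiplying back gave whole reads for 100% of values within 0.01, and these recovered reads were used only in alternatives. The authors also deposited log2 fold changes and p-values of their own, which were not used. The labels name build mm9, but the deposited coordinates of the 10 genes equal those of GENCODE M21 on GRCm38, which was used for positions.

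The 10 genes and all lists were chosen with earlier results of these data known. Genes averaging at least 1 normalized count (21126 of 26012) were tested with limma 3.58.1 (R 4.3.3, trended variance) on log2(normalized count + 1), which understates the change of low genes, with Benjamini-Hochberg adjustment over all genes tested and a threshold of 0.05. Named outside the 10 genes were, in each list, the gene with the lowest p and that with the highest level per kilobase, a few set by name, and the 5 nearest to each of 4 collagens. All pairs of replicate hearts differed by more than sampling noise, so none was counted as a repeat of another. Alternatives used edgeR 4.0.16, DESeq2 1.42.0, limma-voom, other filters and pseudocounts, a replicate block and leaving out each heart. Exact permutation tests used scipy 1.17.1. Promoter windows, seeds and motifs were read from RefSeq and GENCODE sequences.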

Additional observations from a re-analysis of the deposited data

How the results depend on the processing

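In 16 other fits, of which 10 used all 6 hearts, Col4a1, Col4a2, Col4a5, Col8a1, Col8a2 and Col15a1 were lower in every fit and no member passed an adjusted p under 0.05. The smallest adjusted p of a member was 0.0847, without mimic replicate 3. With an unadjusted p under 0.05 as the threshold, 4 members were lower, and 555 of all genes lower and 293 higher. Over all genes, DESeq2 called 28 lower and 1 higher, and the edgeR exact test 28 lower and 2 higher. At an unadjusted p, 177 genes were higher by DESeq2 and 147 with at least 10 reads in every heart.

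The replicate numbers did not pair the hearts (correlations of deviations from -0.12 to -0.01 for the same number), and a fit with the replicate number as a block left 2 members, Col4a5 and Col8a2, lower at an unadjusted p under 0.05. Leaving out 1 heart at a time gave 2 to 6 lower members at that level, with 2 without control replicate 2, control replicate 3 or mimic replicate 2, and 0 to 1 higher, Col4a4 without mimic replicate 3. It gave 1 to 3 members with a higher fold change. Over all genes it gave 0 to 154 lower and 0 to 361 higher calls, and 372 to 1293 lower and 215 to 1777 higher at an unadjusted p, the upper ends always without mimic replicate 3. The cause was not tested.

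Reversed fold changes were Col4a3 at 0.20 and Col18a1 at -0.057 without mimic replicate 3, Col4a4 at -0.13 without mimic replicate 1, and Col4a6 at 0.14 without control replicate 3 or mimic replicate 2. Their ranges were -0.45 to 0.20, -0.057 to 0.28, -0.13 to 0.46 and -0.11 to 0.14. The log2 ratio difference of Col4a1 to Col4a2 ranged from -0.12 to 0.0034 and that of Col4a5 to Col4a1 from -0.088 to 0.022 (0.01 without control replicate 3). That of Col15a1 to Col18a1 ranged from -0.70 to -0.25, of Col4a5 to Col4a6 from -0.63 to -0.27, of Col4a3 to Col4a4 from -0.43 to -0.25 and of Col8a1 to Col8a2 from 0.21 to 0.41. The median of the comparison collagens ranged from -0.18 to 0.05, positive without mimic replicate 2, and that of the proteases and inhibitors from -0.12 to 0.07, positive without mimic replicate 1. The median of the basement membrane genes ranged from -0.12 to -0.0054 and that of the upstream factors from -0.15 to -0.05. The median of the chain assembly genes ranged from -0.14 to -0.017 and that of the receptors from -0.14 to -0.078. Col4a3, Col4a4 and Col4a6 rest on 33 to 197 reads per heart, and the values of Col4a3 and Col4a4 varied by 42.1% and 38.5% (coefficient of variation) between the mimic hearts, against 3.09% and 10.3% between the control hearts.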
